A study of Mus musculus with 7 samples.

Results

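The genes described here encode the subunits of the RNA polymerases of the mouse cell and the general transcription factors that place these enzymes at a start site. They were taken from the array table as every gene whose symbol starts with Polr1, Polr2, Polr3, Polrmt, Gtf2 or Gtf3, together with Brf1, Brf2, Tbp, Ubtf, Rrn3, Tfam, Tfb1m and Tfb2m. The rule used names and no measured value, and it gave 55 genes of the 18938 in the table. Brf1, Gtf2h2, Gtf3a and Gtf3c2, which the rule also names, were not analysed here.

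Expression was measured in prostates of Nkx3.1-/- mice, which lack a homeodomain factor of the prostate epithelium in the whole animal. The NAC group (4 arrays, replicates 1 to 4) drank water with 5 mM N-acetylcysteine, an antioxidant and a precursor of glutathione, and the vehicle group (3 arrays, replicates 1, 2 and 4) drank plain water, in both groups for 13 weeks until an age of 16 weeks. Both groups were recombinant inbred B6/129 mice with the same deletion, and no wild-type prostate was on these arrays. Each array held the RNA of 1 mouse, and 1 further vehicle array did not pass the quality control of the study. Littermates were split between NAC and vehicle cages, so cage and treatment cannot be told apart. The extraction protocol names the anterior prostate and a tissue label the whole prostate. All values are on the log2 scale of the deposited table, where a difference of 1 is a 2-fold change, and a probe set's level cannot be set against that of another gene.

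RNA polymerase I transcribes the ribosomal RNA precursor in the nucleolus, polymerase II messenger RNAs, and polymerase III transfer RNAs, 5S ribosomal RNA and other short RNAs. Each is built from a large catalytic pair of subunits, smaller subunits that several of these enzymes share, and subunits of its own. General factors recognise the promoter and recruit the enzyme, and Tbp serves all of these nuclear systems. Mitochondria use Polrmt, a polymerase related to those of bacteriophages, with Tfam and Tfb2m as its initiation factors. The output of these enzymes is tied to growth and ribosome supply, and prominent nucleoli are a known histological sign of prostate carcinoma.

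The table stood as follows before these genes were compared. The medians of the 7 arrays over the 18938 genes were close (7.16 to 7.2). Luminal markers such as Krt8 and Krt18 were present on all arrays, with a mean over the 9 measured genes (of 11 listed) of 11.83 to 11.98 with NAC and 11.87 to 11.9 with vehicle. NAC replicate 3 stood apart in 6 lung genes, whose mean was 8.06 on that array, 5.5 to 5.56 on the other NAC arrays and 5.45 to 5.55 on the vehicle arrays. That array was also above the others in adipocyte genes (7.48) and skeletal muscle genes (7.82). The 6 macrophage markers had means of 7.84 to 8.12 with NAC and 7.71 to 7.82 with vehicle, and the 6 seminal vesicle genes 8.95 to 10.51 with NAC and 10.28 to 10.59 with vehicle. The part of these differences in the values below was not tested. The arrays were made from bulk tissue, so fewer cells of a type and less RNA per cell cannot be told apart.

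No polymerase or general factor gene passed the test between NAC and vehicle. Of the 55 genes 41 had a lower mean with NAC and 14 a higher mean, with log2 fold changes from -0.30 to 0.11 and a median of -0.03. In limma's test with Benjamini-Hochberg adjustment over all 18938 genes, 0 members were called, as were 0 genes in the whole table (0%), and the lowest adjusted p was 0.827. At an unadjusted p under 0.05, 4 members were lower with NAC (Tfam, Gtf2b, Ubtf and Polr3e) and 0 were higher. Over the whole table, 836 genes (4.41%) had such a p, 479 of them lower (2.53%) and 357 higher (1.89%). Of the 55 genes 54 lay over the 40th percentile of gene means (6.59) and Gtf2a1l under it. Some lay close above it, such as Polr2k with a mean of 6.84. Among the 11363 genes above that percentile 417 (3.67%) were lower at this p, against 4 of the 55 members (7.3%).

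The intervals show how far a difference could reach with 7 arrays. The 95% interval of the fold change lay within 1.5-fold in either direction for 54 members, all but Tfb1m, and within 1.2-fold for 45. The median within-group SD was 0.075 for the members and 0.084 for all genes. For 51 members the interval included 0.

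**Figure D1:**
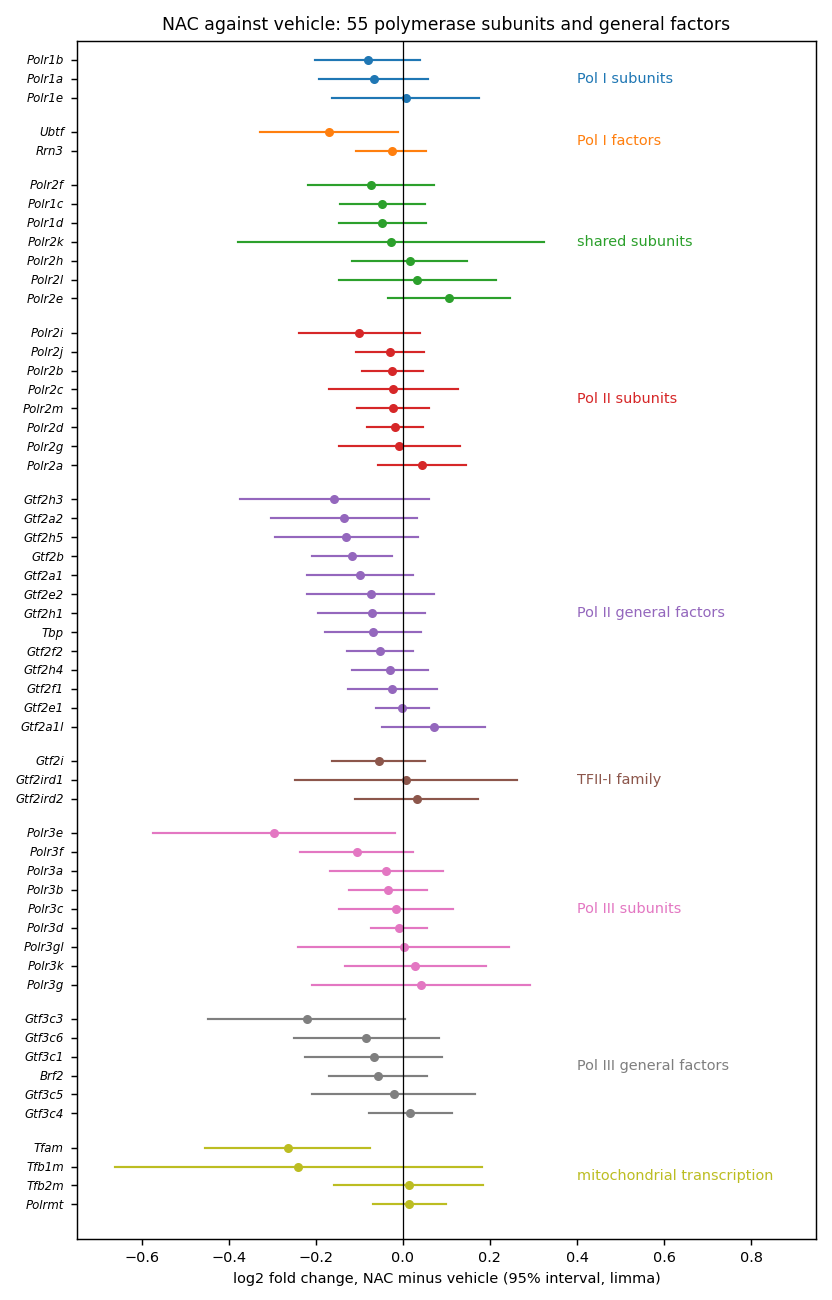
Log2 fold change of NAC minus vehicle for each of the 55 genes (point) with its 95% interval from limma (line), ordered within each class and coloured by class. The intervals of Tfam, Gtf2b, Ubtf and Polr3e end below 0, and the other 51 cross it.

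Promoter sequences of the members were read as a description of the genes, from the RefSeq annotation of GRCm38.p6. A window from 250 bases before to 50 bases after the annotated start was found for 48 of the 55 genes, 58 windows in all. Their median GC content was 60.0%, against 52.7% over all 32851 windows of the same length. Motifs were counted on both strands. The ETS-like core CCGGAAG was in 17 of the 58 windows (29.3%), against 8.9% of all windows, and the E-box CACGTG in 13 (22.4%), against 7.2%. The NRF1-like core GCATGCG was in 6 (10.3%), against 3.6%, the YY1-like core GATGGCG in 4 (6.9%), against 3.5%, and TATAAA in 6 (10.3%), against 13.6%. A match says only that these letters are in the window. The windows of Tfam, Gtf2b and Polr3e, the genes with unadjusted p under 0.05 that have 1 window each, are given below. That of Polr2a, a catalytic subunit with a TATA motif, is given as well. Polrmt also had TATAAA, at -190. The windows run 5′ to 3′ on the strand of the gene, with the motif found in each in capitals.
Tfam promoter, chr10:71237995-71238294, strand -: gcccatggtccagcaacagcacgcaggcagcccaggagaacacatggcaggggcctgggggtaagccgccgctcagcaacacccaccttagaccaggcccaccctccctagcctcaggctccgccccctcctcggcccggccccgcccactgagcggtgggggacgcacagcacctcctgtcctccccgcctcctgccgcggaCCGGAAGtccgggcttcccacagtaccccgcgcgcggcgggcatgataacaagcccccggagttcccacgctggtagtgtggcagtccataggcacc
Gtf2b promoter, chr3:142764997-142765296, strand +: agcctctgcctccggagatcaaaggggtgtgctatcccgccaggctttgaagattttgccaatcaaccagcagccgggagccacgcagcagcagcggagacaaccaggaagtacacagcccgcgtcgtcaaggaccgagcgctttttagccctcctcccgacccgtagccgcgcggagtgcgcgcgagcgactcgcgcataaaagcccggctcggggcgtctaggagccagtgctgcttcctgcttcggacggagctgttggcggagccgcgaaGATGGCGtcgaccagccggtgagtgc
Polr3e promoter, chr7:120917528-120917827, strand +: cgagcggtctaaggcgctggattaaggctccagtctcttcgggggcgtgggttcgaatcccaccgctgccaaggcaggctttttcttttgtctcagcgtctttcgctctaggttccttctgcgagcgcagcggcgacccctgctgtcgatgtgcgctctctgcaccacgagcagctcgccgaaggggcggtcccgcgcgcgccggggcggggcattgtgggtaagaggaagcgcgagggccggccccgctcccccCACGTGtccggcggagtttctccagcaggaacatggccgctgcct
Polr2a promoter, chr11:69758584-69758883, strand -: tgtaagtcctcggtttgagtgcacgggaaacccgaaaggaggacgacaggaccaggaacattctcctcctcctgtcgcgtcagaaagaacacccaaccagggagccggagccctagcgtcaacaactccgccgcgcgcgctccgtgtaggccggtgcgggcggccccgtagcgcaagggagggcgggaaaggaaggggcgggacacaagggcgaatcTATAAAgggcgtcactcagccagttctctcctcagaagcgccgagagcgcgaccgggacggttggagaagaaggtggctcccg
Counted from the annotated start, the capitals mark CCGGAAG at -47 for Tfam, GATGGCG at 24 for Gtf2b, CACGTG at 5 for Polr3e and TATAAA at -33 for Polr2a. The window of Tfam lies wholly inside the annotated span of that gene (chr10:71225468-71238328). Its start is therefore not the outermost end of the gene, and the window is not upstream of that end. Polr3e, a subunit of the enzyme that makes transfer RNAs, lay beside a transfer RNA gene. The annotated gene n-TLaag4 (chr7:120917517-120917598) covers the opening 71 bases of the window and ends 180 bases before the start of Polr3e. Such an overlap was found in 10 of the 32851 windows (0.0304%) and in 1 window of the members. The array measured neither transfer RNAs nor factor binding, so whether these sequences bear on the values was not tested.

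The polymerase I genes of the list, apart from shared subunits, were 3 subunits and 2 factors. Polr1b (chr2:129100970-129128060, GRCm38.p6), the second-largest subunit, which forms the active site with Polr1a, had values of 8.98, 8.89, 8.92 and 8.96 on the NAC arrays and 9.12, 8.94 and 8.98 on the vehicle arrays. The groups overlapped and averaged 8.93 ± 0.04 with NAC and 9.02 ± 0.10 with vehicle (SD, n = 4 and 3). The log2 fold change of Polr1b was -0.08 (SE 0.05, 95% interval -0.20 to 0.04, adjusted p = 0.827), and -0.09 without NAC replicate 4. Polr1a, the catalytic subunit, had 8.38, 8.35, 8.32 and 8.35 with NAC and 8.45, 8.50 and 8.30 with vehicle. Its NAC values lay inside the range of the vehicle values, and the log2 fold change was -0.07 (SE 0.05). Polr1e, another polymerase I subunit, had 7.24, 7.32, 7.14 and 7.20 with NAC and 7.1, 7.36 and 7.20 with vehicle, a log2 fold change of 0.01 (SE 0.07).

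Ubtf (chr11:102304560-102323649), the HMG-box protein that coats active ribosomal DNA, had 9.86, 9.75, 9.85 and 9.72 with NAC and 10.03, 9.83 and 10.04 with vehicle. NAC replicates 2 and 4 were below every vehicle array, while NAC replicates 1 and 3 were above vehicle replicate 2. The means were 9.80 ± 0.07 with NAC and 9.97 ± 0.12 with vehicle, a log2 fold change of -0.17 (SE 0.07, 95% interval -0.33 to -0.01) and a fold of 0.889. Its adjusted p was 0.827, and the estimate was -0.14 without NAC replicate 4. Rrn3, which links polymerase I to the promoter-bound factors and responds to growth signals, had 9.73, 9.77, 9.77 and 9.77 with NAC and 9.77, 9.84 and 9.75 with vehicle, a log2 fold change of -0.03 (SE 0.03). The 9 measured partners of polymerase I outside the list (of 10) included genes of the promoter selectivity factor. They also included Twistnb, Cd3eap and Znrd1, polymerase I subunits whose symbols the rule does not match. These partners had 8 lower means and 1 higher, with a median of -0.05 and 0 at an unadjusted p under 0.05. Among them Taf1a, a subunit of that selectivity factor, had 8.99, 8.99, 8.94 and 8.78 with NAC and 9.08, 8.99 and 9.12 with vehicle. Taf1d of the same factor had a log2 fold change of -0.20 (SE 0.12).

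**Figure D2:**
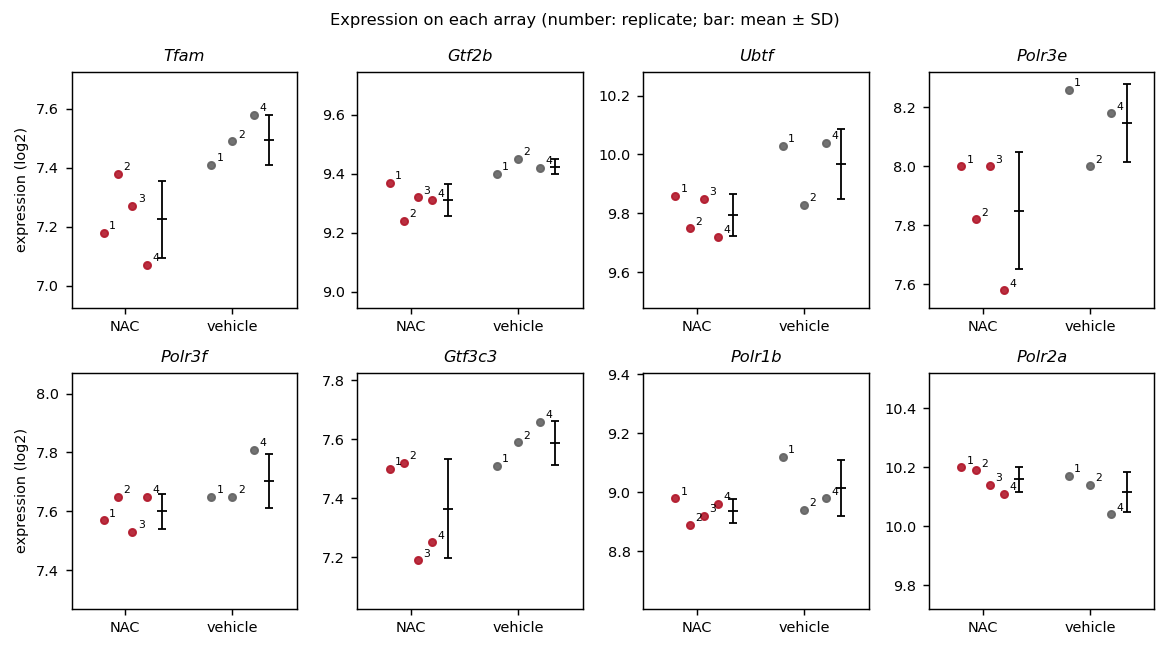
Log2 expression of 8 genes on each array, with NAC left of vehicle, the replicate number beside each point, the mean ± SD as a black bar, and the same span of 0.8 log2 units on every axis. The NAC points of Tfam, Gtf2b and Polr3f lie below the vehicle points, with those of Polr3f touching at 7.65, and the groups overlap in Ubtf, Polr3e, Gtf3c3, Polr1b and Polr2a.

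The 7 subunits shared between polymerases did not share a direction. Their median log2 fold change was -0.03, with 4 lower and 3 higher means, and 0.02 without NAC replicate 4, with 3 lower and 4 higher. Polr2e, a subunit of all the nuclear enzymes, had 9.51, 9.50, 9.45 and 9.66 with NAC and 9.50, 9.41 and 9.37 with vehicle. Its log2 fold change of 0.11 (SE 0.06, 95% interval -0.04 to 0.25) was the highest of the 55 genes, and NAC replicate 4 was the highest array. Without that array the log2 fold change of Polr2e was 0.06 (SE 0.04), and that of Polr3g (0.13) was the highest. Polr2f, also common to all the nuclear enzymes, had 11.34, 11.46, 11.25 and 11.28 with NAC and 11.33, 11.40 and 11.49 with vehicle, a log2 fold change of -0.07 (SE 0.06). Polr1c, an assembly subunit of polymerases I and III, had 9.95, 9.99, 9.99 and 9.88 with NAC and 10, 9.95 and 10.05 with vehicle, a log2 fold change of -0.05 (SE 0.04). Polr2k was the most variable of these, from 6.61 to 7.04 over the NAC arrays and from 6.66 to 7.03 over the vehicle arrays.

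The 8 subunits of polymerase II had a median log2 fold change of -0.02, with 7 lower means and 1 higher. The gene above 0 was Polr2a, the catalytic subunit whose C-terminal repeats are phosphorylated during transcription. It had 10.20, 10.19, 10.14 and 10.11 with NAC and 10.17, 10.14 and 10.04 with vehicle. The groups overlapped, and the log2 fold change was 0.04 (SE 0.04, 95% interval -0.06 to 0.14). Polr2i, a subunit whose yeast counterpart acts in start site choice and fidelity, had 7.69, 7.60, 7.71 and 7.58 with NAC and 7.69, 7.86 and 7.69 with vehicle, a log2 fold change of -0.10 (SE 0.06). Polr2j, part of the assembly platform, had 10.65, 10.63, 10.60 and 10.62 with NAC and 10.71, 10.62 and 10.63 with vehicle, a log2 fold change of -0.03 (SE 0.03). The 8 estimates ran from -0.10 to 0.04, so the count of lower means rested on small values.

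Among the 13 general factors of polymerase II 12 had lower means with NAC and 1 a higher mean, with a median log2 fold change of -0.07, against 50.5% lower and a median of 0.0 over all genes. All but Gtf2a1l lay above the 40th percentile of gene means, where 61.5% of genes were lower, with a median of -0.02. Gtf2b encodes TFIIB, which bridges promoter-bound Tbp and the polymerase. It had 9.37, 9.24, 9.32 and 9.31 on the NAC arrays and 9.40, 9.45 and 9.42 on the vehicle arrays. The 4 NAC values were all below the 3 vehicle values, nearest between NAC replicate 1 and vehicle replicate 1. The means were 9.31 ± 0.05 with NAC and 9.42 ± 0.03 with vehicle. The log2 fold change of Gtf2b was -0.12 (SE 0.04, 95% interval -0.21 to -0.03, adjusted p = 0.827), a fold of 0.923, and was -0.12 without NAC replicate 4 as well.

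The TFIIA genes stabilise Tbp on DNA. Gtf2a1 had 9.93, 10.04, 9.90 and 9.83 with NAC and 10.04, 10 and 10.03 with vehicle, and Gtf2a2 had 7.92, 8.18, 7.96 and 7.97 with NAC and 8.07, 8.20 and 8.15 with vehicle. In both genes NAC replicate 2 lay among the vehicle arrays and the other NAC arrays lay below them. The log2 fold changes were -0.10 for Gtf2a1 (SE 0.05) and -0.14 for Gtf2a2 (SE 0.07). Gtf2a1l, the paralog of Gtf2a1 known from male germ cells, had 5.46, 5.46, 5.46 and 5.56 with NAC and 5.48, 5.45 and 5.32 with vehicle, in the dim part of the table. Tbp, used by all the nuclear polymerases, had 8.91, 8.92, 8.84 and 8.76 with NAC and 8.95, 8.91 and 8.92 with vehicle. NAC replicates 3 and 4 were below the vehicle arrays, and the log2 fold change was -0.07 (SE 0.05), or -0.04 without NAC replicate 4.

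TFIIF and TFIIH, which stabilise the complex and open the DNA, gave small values. Gtf2f2 did not overlap between groups (8.03, 8.10, 8.09 and 8.04 with NAC, 8.14, 8.11 and 8.10 with vehicle, touching at 8.10) and had a log2 fold change of -0.05 (SE 0.03). The 4 TFIIH core genes of the list ran from -0.16 for Gtf2h3 (SE 0.09) to -0.03 for Gtf2h4 (SE 0.04). The 5 TFIIH subunits outside the list all had lower means, with a median of -0.04 and 2 at an unadjusted p under 0.05. Of the genes above the 40th percentile of gene means 61.5% were lower, and 3.67% were lower at this p (2.53% of all genes). Cdk7, the TFIIH kinase that phosphorylates the polymerase II repeats, had 6.87, 7.04, 6.99 and 6.89 with NAC and 7.15, 7.04 and 7.26 with vehicle, a log2 fold change of -0.20 (SE 0.07, adjusted p = 0.827). Ccnh, the cyclin partner of Cdk7, had 8.69, 8.71, 8.62 and 8.54 with NAC and 8.78, 8.79 and 8.74 with vehicle, a log2 fold change of -0.13 (SE 0.05, adjusted p = 0.827). The groups did not overlap in either gene, those of Cdk7 touching at 7.04. Without vehicle replicate 1 neither kept an unadjusted p under 0.05.

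Other polymerase II partners were counted the same way. The 16 measured TFIID subunits and Tbp relatives (of 17) had 11 lower and 5 higher means with a median of -0.05, the 32 Mediator genes (of 33) 22 lower and 10 higher with -0.01, and the 29 elongation and pausing genes (of 31) 18 lower and 11 higher with -0.02. After the arrays were quantile normalized again the Mediator genes turned to 13 lower and 19 higher with a median of 0.017, and the elongation and pausing genes to 14 lower and 15 higher with 0.002. Without NAC replicate 3 the TFIID subunits and Tbp relatives were 8 lower and 8 higher. Without vehicle replicate 1 the Mediator genes were 16 lower and 16 higher. Ccnt1, the cyclin of the pause-release kinase, had a log2 fold change of -0.16 (SE 0.06), and Tcea1, the elongation factor TFIIS, 0.14 (SE 0.06). Both had an unadjusted p under 0.05, and both had overlapping groups. Tbpl1, a relative of Tbp that acts in the male germ line, varied most, with 8.42, 9.61, 9.29 and 8.24 on the NAC arrays and 9.51, 9.29 and 9.76 on the vehicle arrays. NAC replicates 1 and 4 were the lowest arrays and the groups overlapped, and the log2 fold change was -0.63 with an SE of 0.35. Med10 of the Mediator middle module was higher with NAC, the groups touching at 9.27, with 9.31, 9.32, 9.33 and 9.27 with NAC and 9.10, 9.25 and 9.27 with vehicle. Ccnc, the cyclin of the Mediator kinase module, had -0.16 (SE 0.08), and Taf5, a scaffold of TFIID, -0.10 (SE 0.05).

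The 3 TFII-I genes, Gtf2i, Gtf2ird1 and Gtf2ird2, carry a general factor's symbol but encode sequence-specific DNA-binding proteins. Gtf2i had 10.67, 10.64, 10.64 and 10.51 with NAC and 10.67, 10.64 and 10.70 with vehicle, a log2 fold change of -0.06 (SE 0.05). Gtf2ird1 had 8.07, 8.18, 7.85 and 8.23 with NAC and 8.06, 8.23 and 7.94 with vehicle, a log2 fold change of 0.01 (SE 0.11). Gtf2ird2 had 7.78, 7.89, 7.77 and 7.77 with NAC and 7.88, 7.78 and 7.66 with vehicle, a log2 fold change of 0.03 (SE 0.06). The groups overlapped in all 3 genes, and each estimate was smaller than 2 SE.

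The 9 subunits of polymerase III in the list had a median log2 fold change of -0.02, with 6 lower means and 3 higher. Polr3e, the gene with a transfer RNA gene in its promoter window, encodes a subunit that with Polr3d forms a module that resembles TFIIF. It had 8.0, 7.82, 8.0 and 7.58 on the NAC arrays and 8.26, 8.0 and 8.18 on the vehicle arrays. NAC replicate 4 was the lowest array, and NAC replicates 1 and 3 were level with vehicle replicate 2. The means were 7.85 ± 0.20 with NAC and 8.15 ± 0.13 with vehicle. Its log2 fold change of -0.30 (SE 0.12, 95% interval -0.58 to -0.02, adjusted p = 0.827), a fold of 0.814, was the lowest of the 55 genes, and was -0.21 without NAC replicate 4. Polr3a, the catalytic subunit, had 8.61, 8.43, 8.53 and 8.48 with NAC and 8.63, 8.50 and 8.52 with vehicle, a log2 fold change of -0.04 (SE 0.05). Polr3b, which completes the active site, had 9.11, 9.11, 9.12 and 9.11 with NAC and 9.22, 9.10 and 9.11 with vehicle, a log2 fold change of -0.03 (SE 0.04), with vehicle replicate 1 above all other arrays.

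The initiation module of polymerase III is formed by Polr3c, Polr3f and either Polr3g or Polr3gl. Polr3f had 7.57, 7.65, 7.53 and 7.65 with NAC and 7.65, 7.65 and 7.81 with vehicle. To 2 decimals the groups touched at 7.65, and the log2 fold change was -0.11 (SE 0.06). Polr3g, the form known from human stem cells and tumour cells, had 9.70, 9.61, 9.50 and 9.25 with NAC and 9.51, 9.50 and 9.41 with vehicle. NAC replicates 1 and 2 were above the vehicle arrays and NAC replicate 4 was below them, so the log2 fold change was 0.04 (SE 0.11) with all arrays and 0.13 without NAC replicate 4. Polr3gl, the form found in most adult tissues, had 8.41, 8.32, 8.4 and 8.38 with NAC and 8.61, 8.14 and 8.38 with vehicle, a log2 fold change of 0.00 (0.002, SE 0.10). Polr3k, the subunit for RNA cleavage and termination, did not overlap between groups when NAC replicate 4 was left out, with 8.57, 8.71 and 8.64 on the other NAC arrays and 8.57, 8.56 and 8.55 on the vehicle arrays, touching at 8.57. NAC replicate 4 had 8.42, below all of these.

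The 6 general factors of polymerase III had 5 lower means and 1 higher and a median log2 fold change of -0.06. TFIIIC binds the internal promoters of transfer RNA genes, and its subunit Gtf3c3 had 7.50, 7.52, 7.19 and 7.25 with NAC and 7.51, 7.59 and 7.66 with vehicle. NAC replicates 3 and 4 were low and NAC replicate 2 lay at the vehicle level, for a log2 fold change of -0.22 (SE 0.10, 95% interval -0.45 to 0.01). Gtf3c6, another TFIIIC subunit, had 8.78, 8.85, 8.60 and 8.78 with NAC and 8.78, 8.94 and 8.78 with vehicle, a log2 fold change of -0.08 (SE 0.07). Brf2, which with Tbp and Bdp1 forms the TFIIIB of promoters outside the gene such as that of U6 RNA, had 7.19, 7.21, 7.05 and 7.20 with NAC and 7.20, 7.26 and 7.20 with vehicle, a log2 fold change of -0.06 (SE 0.05). The 10 partners of polymerase III outside the list included Crcp, a subunit whose symbol the rule does not match. These partners had 7 lower and 3 higher means with a median of -0.04 and 0 at an unadjusted p under 0.05. Bdp1 had 8.61, 8.51, 8.50 and 8.17 with NAC and 8.73, 8.54 and 8.63 with vehicle, with NAC replicate 4 again lowest. Ssb, the La protein that binds the end of new polymerase III transcripts, had -0.09 (SE 0.04).

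Of the 4 mitochondrial genes Tfam and Tfb1m had lower means with NAC, and Polrmt and Tfb2m differed by 0.02 or less. Tfam, which packages mitochondrial DNA and bends it at the promoters, had 7.18, 7.38, 7.27 and 7.07 on the NAC arrays and 7.41, 7.49 and 7.58 on the vehicle arrays. All 4 NAC values were below all 3 vehicle values, nearest between NAC replicate 2 and vehicle replicate 1. The means were 7.23 ± 0.13 with NAC and 7.49 ± 0.08 with vehicle, a fold of 0.832. The log2 fold change of Tfam was -0.27 (SE 0.08, 95% interval -0.45 to -0.08, adjusted p = 0.827), and -0.21 without NAC replicate 4. Polrmt, the mitochondrial RNA polymerase, had 8.76, 8.76, 8.76 and 8.80 with NAC and 8.81, 8.76 and 8.70 with vehicle, a log2 fold change of 0.02 (0.015, SE 0.04, 95% interval -0.07 to 0.10).

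Tfb2m, which melts the mitochondrial promoter, had 10.16, 10.23, 10.34 and 10.16 with NAC and 10.24, 10.07 and 10.32 with vehicle, a log2 fold change of 0.01 (SE 0.07). Tfb1m, the methyltransferase of the small mitochondrial ribosomal RNA, had 8.37, 8.36, 8.39 and 7.85 with NAC and 8.53, 8.19 and 8.73 with vehicle. Its log2 fold change was -0.24 (SE 0.18) with all arrays and -0.11 without NAC replicate 4, the array at 7.85. The 12 measured partners of mitochondrial transcription and DNA upkeep (of 14) all had lower means with NAC, with a median of -0.06 and 0 at an unadjusted p under 0.05. Of the genes above the 40th percentile of gene means 61.5% were lower. The partners were 10 lower and 2 higher after the arrays were quantile normalized again, and 9 lower and 3 higher without NAC replicate 3. Twnk, the mitochondrial DNA helicase, had 7.41, 7.31, 6.98 and 7.32 with NAC and 7.60, 7.41 and 7.42 with vehicle, and Polg2, the accessory subunit of the mitochondrial DNA polymerase, had -0.08 (SE 0.04).

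The genes of ribosomal RNA processing, downstream of polymerase I, had 12 lower and 3 higher means among 15 measured (of 17), with a median of -0.04. This was 8 lower and 7 higher with a median of -0.006 without NAC replicate 3, the array with lung and fat transcripts, and 9 lower and 6 higher with -0.002 after the arrays were quantile normalized again. Utp14a, a small-subunit processome protein, had -0.09 (SE 0.04) and Nolc1, a nucleolar phosphoprotein, -0.08 (SE 0.04). Over all 128 partner genes 95 (74.2%) had lower means and 33 higher means, with a median of -0.03, beside 61.5% lower among the brighter genes of the table. After the arrays were quantile normalized again, 73 of the 128 (57.0%) had lower means, with a median of -0.008. At an unadjusted p under 0.05, 3 partners (2.3%) were lower, against 2.53% of all genes, 1 was higher, and 0 were called.

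**Figure D3:**
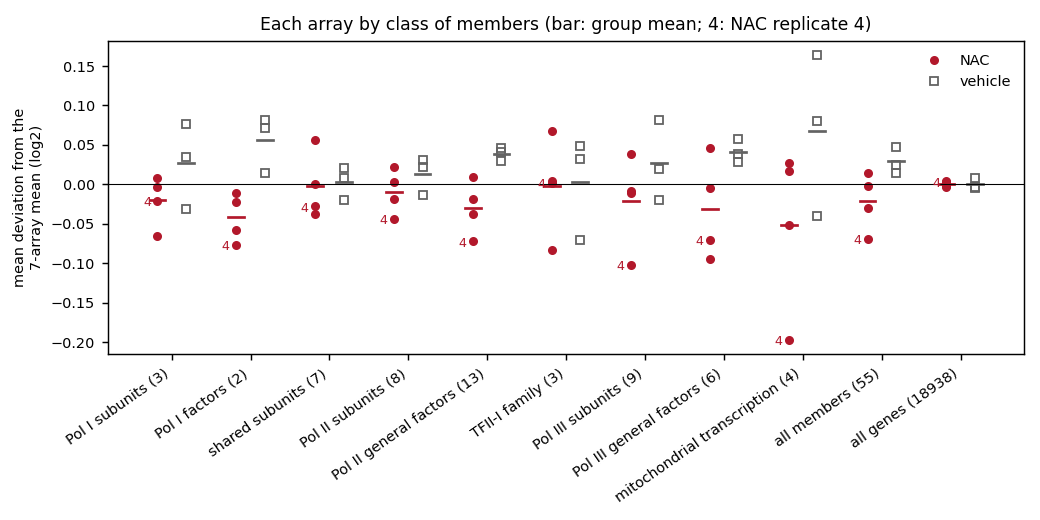
Mean deviation of each array from the 7-array mean (log2), by class of genes with the number of genes in brackets, NAC as filled circles left of vehicle as open squares, group means as bars, and NAC replicate 4 marked 4. NAC replicate 4 is at -0.197 in the mitochondrial genes and -0.102 in the polymerase III subunits, and the arrays of all genes together stay within 0.01 of 0.

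Array by array, the 55 genes deviated from their 7-array means on average by 0.014, -0.002, -0.03 and -0.069 on NAC replicates 1 to 4 and by 0.047, 0.015 and 0.025 on vehicle replicates 1, 2 and 4. NAC replicate 4 was the lowest array for 19 of the 55 genes (34.5%), against 17.3% of all genes. Vehicle replicate 1 was the highest for 17 (30.9%), against 18.3% of all genes. The 75th percentile of the array values was also lowest on NAC replicate 4 (8.78) and highest on vehicle replicate 1 (8.86). These shares were not counted among the brighter genes alone, where all members but Gtf2a1l lay. The general factors of polymerase II had -0.018, 0.009, -0.037 and -0.072 with NAC and 0.046, 0.03 and 0.041 with vehicle, without overlap. In the mitochondrial genes the vehicle arrays themselves ranged from -0.04 to 0.164.

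Groups did not overlap for 4 members, all lower with NAC (Tfam, Gtf2b, Gtf2f2 and Polr3f), and for 0 members in the other direction. Over the whole table, 412 genes (2.18%) were lower and 245 (1.29%) higher without overlap. Among the 11363 genes above the 40th percentile of gene means 371 (3.3%) were lower without overlap, against 7.3% of the members. Without NAC replicate 4 the same 4 members did not overlap and were lower, against 3% of all genes and 4.0% of the brighter genes. Polr3k then did not overlap and was higher, against 1.89% of all genes. In that comparison 0 members were called, against 1 gene of the table (0.00528%). The unadjusted p was then under 0.05 for 2 members, Gtf2b and Tfam, against 3.15% of all genes. Both were lower, against 1.78% of all genes and 2.36% of the brighter genes, and 0 members were higher, against 1.37%. Lower means were then counted for 36 of the 55 genes, with a median of -0.03. The loss of the array moved the estimates of Ubtf, Polr3e, Tfb1m and Gtf2h3 towards 0 and left that of Gtf2b where it was. Without NAC replicate 3, 43 of the 55 (78.2%) had lower means, against 50.2% of all genes and 59.4% of the brighter genes. Tfam, Gtf2b, Ubtf and Polr3e then kept an unadjusted p under 0.05 (7.3% of the members), against 1.85% of all genes lower at this p.

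**Figure D4:**
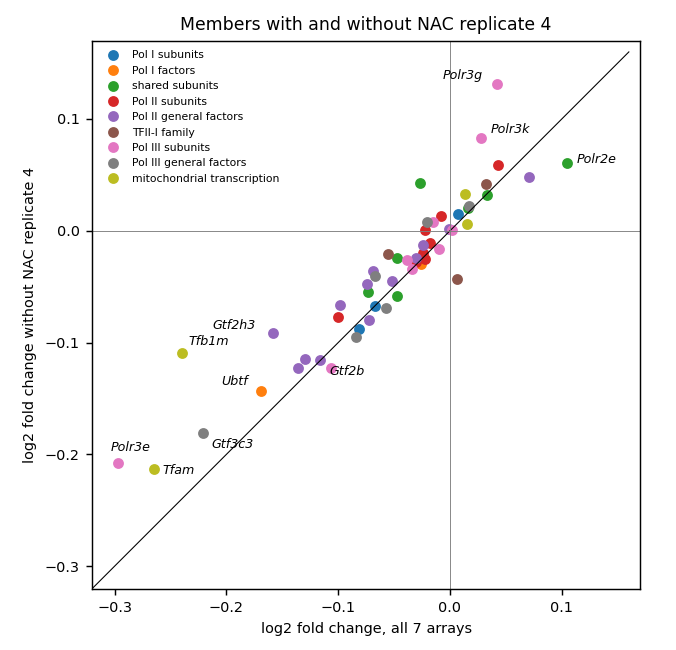
Log2 fold change of each of the 55 genes with all 7 arrays (x axis) and without NAC replicate 4 (y axis), coloured by class, with the line of equal values. Tfb1m lies farthest above the line (-0.24 with all arrays, -0.11 without), Polr3e moves to -0.21, and Gtf2b stays on the line.

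The tilt of the list depended on how the arrays were scaled. The 75th percentile of the array values was 8.83, 8.83, 8.80 and 8.78 on the NAC arrays and 8.86, 8.83 and 8.81 on the vehicle arrays, and 61.5% of the 11363 genes above the 40th percentile had lower means with NAC, with a median of -0.02. The 41 lower and 14 higher members (74.5% lower) became 33 lower and 22 higher (60.0%) after the arrays were quantile normalized again, with a median of -0.007, while the brighter genes became 49.7% lower with a median of 0.0. With this scaling the array means of the members overlapped between groups, at 0.012, -0.011, -0.012 and -0.039 on the NAC arrays and 0.016, 0.0 and 0.033 on the vehicle arrays. Polr3e and Tfam kept an unadjusted p under 0.05, and Gtf2b and Ubtf did not. The general factors of polymerase II were then 11 lower and 2 higher with a median of -0.04, against 12 lower and 1 higher with -0.07 in the values as deposited, and the subunits of polymerase II became 3 lower and 5 higher.

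**Figure D5:**
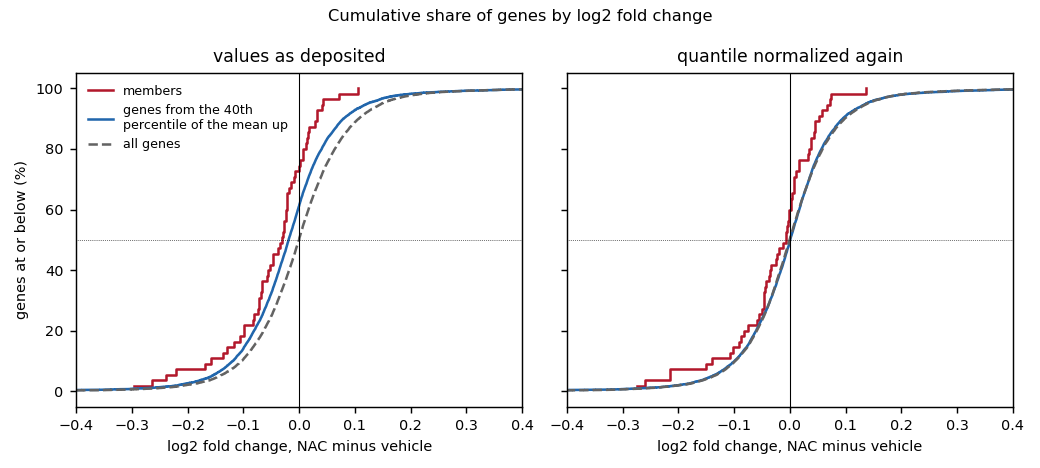
Cumulative share of genes (%, y axis) by log2 fold change of NAC minus vehicle (x axis) for the 55 members, the 11363 genes from the 40th percentile of the mean up and all 18938 genes, with the values as deposited (left) and quantile normalized again (right). On the left the curve of the members stands left of 0 with 74.5% of genes below it, and on the right 60.0% are below it.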

How the data were processed

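Total RNA of prostates of 4 NAC and 3 vehicle mice was hybridised to whole-transcript arrays of Affymetrix, and groups and replicate numbers came from the labels. The deposited values are log2 expression values. The authors made them with the affy package in RMA, by background correction, normalization of quantiles and median polish of probes, which puts the arrays on 1 scale and can give several arrays an equal value. Such ties on 3 or more arrays occur in 40.0% of genes and in 11 of the 55 members. The submitters' notes name affy, RMA and limma, and give no version. No column of values lacked a sample (0 columns).

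Of 20696 probe sets, the 678 that named several genes and the 1068 that named none in the platform annotation were left out. The highest-mean probe set stood for a gene, which gave 18938 genes, 18922 of them with an Entrez identifier in the GRCm38.p6 gene table. Every member had 1 probe set.

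The groups were compared in R 4.3.3 by limma 3.58.1 with lmFit and eBayes, two-sided and without covariates, at a Benjamini-Hochberg adjusted p under 0.05 over all genes. The fit was checked on simulated data, where it recovered 71.5% of log2 changes of 0.5, with 8.8 false calls per run. Smaller changes, such as those of the members, were not simulated. The p-values of the fit set the difference between groups against the spread of these mice within groups. Values were given for Polr1b, the catalytic subunits, Tbp, Tfam, up to 3 genes per class with the lowest unadjusted p, every member under 0.05 and paralog pairs, and for up to 2 genes per partner list. Gtf2f2, Polr3k, Polr2k and the TFIIH genes Gtf2h3 and Gtf2h4 were named after their values were seen. The members and lists were chosen with earlier results of these data known. Alternatives were a trended and robust variance, estimated weights of arrays, subtraction of array medians, a second quantile normalization, no genes below the 40th percentile, medians of a gene's probe sets, replicate numbers as a block, and each array left out.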

Additional observations from a re-analysis of the deposited data

Results flagged for a closer look

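For 11 of the 55 genes 1 of the 4 NAC arrays lay far from the other 3 by Dixon's criterion. Chance gives about 1 in 20 groups, and 20.7% of all genes in this table met the criterion, against 20.0% of the members, where values that are equal on several arrays make the gap easy to reach. On NAC replicate 4 the values were 7.85 for Tfb1m (8.36 to 8.39 on the other NAC arrays), 7.4 for Gtf2h3 (7.67), 8.73 for Gtf2e2 (8.83), 5.56 for Gtf2a1l (5.46) and 8.8 for Polrmt (8.76). The first 3 of these were low and the last 2 high. On NAC replicate 3 they were 9.43 for Polr1d (9.56), 9.05 for Gtf2h1 (9.15), 7.05 for Brf2 (7.19 to 7.21) and 9.12 for Polr3b (9.11). Gtf2ird2 stood out on NAC replicate 2 at 7.89 (7.77 to 7.78), and Rrn3 on NAC replicate 1 at 9.73 (9.77). Among these the gap was widest for Tfb1m and Gtf2h3.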

How the results depend on the processing

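Under 14 alternatives 0 members were called, and 0 genes of the table except without NAC replicate 4 (0 to 1 gene when 1 array was left out). Members lower at an unadjusted p under 0.05 numbered 4, against 2 after quantile normalization again and 2 to 6 with 1 array left out, the 2 being reached without NAC replicate 4 (Gtf2b, Tfam) and without vehicle replicate 4 (Polr1a, Gtf2b), and those higher 0 to 1, Polr2l without vehicle replicate 1. The share of all genes lower at this p moved as well, with 2.53% for all arrays, 2.37% after quantile normalization again, 4.24% without NAC replicate 2, where the 6 members were found, 1.78% without NAC replicate 4 and 1.75% without vehicle replicate 4. After quantile normalization again the medians were -0.007 for all members, 0.005 for the subunits and -0.044 for the general factors of polymerase II, and 0.012 for the subunits of polymerase III. Array weights gave -0.004 for the shared subunits, and without dim genes the median of all genes was -0.019. With 1 array left out the medians ran from -0.048 to 0.045 for the shared subunits, -0.028 to -0.011 for the subunits and -0.084 to -0.048 for the general factors of polymerase II, -0.056 to 0.002 for the subunits of polymerase III, -0.042 to -0.026 for all members and -0.004 to 0.004 for all genes. Of 433 values of the 31 named genes 19 changed sign, in 9 genes whose estimates lay near 0. With array weights Gtf2ird1 was -0.003 and Polr1e -0.001, and with 1 array left out the ranges were -0.064 to 0.083 for Gtf2ird1, -0.026 to 0.084 for Gtf2ird2, -0.054 to 0.076 for Polr1e, -0.07 to 0.002 for Polr3a, -0.056 to 0.005 for Polr3b, -0.022 to 0.131 for Polr3g, -0.116 to 0.118 for Polr3gl, -0.015 to 0.041 for Polrmt and -0.046 to 0.003 for Rrn3. The cause was not tested. Same-numbered NAC and vehicle arrays correlated in their deviations with r of 0.21, 0.29 and -0.07, and differently numbered ones with r from -0.27 to 0.21. So few pairs cannot show whether same-numbered mice were related. With the replicate number as a block 0 members were called, and Polr3gl was -0.006. In that fit 3 members (5.5%) were lower at an unadjusted p under 0.05 (Ubtf, Polr3e, Tfam), against 2.6% of all genes. Signal over background cannot be read from these summarized values.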

Other observations

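The members and partners of TFIIH, put together after their values were seen, had lower means with NAC in 9 of 9 measured genes, with a median log2 fold change of -0.07. Of the genes above the 40th percentile of gene means 61.5% were lower. After quantile normalization again the TFIIH count was 8 of 9 with a median of -0.04, and without vehicle replicate 1 it was 8 of 9. Cdk7 and Ccnh had an unadjusted p under 0.05 with either scaling, but neither did without vehicle replicate 1. Cdk7 did not with the replicate number as a block or without vehicle replicate 4, and Ccnh did not without NAC replicate 3 or without vehicle replicate 2.

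A probe set that names both Rpl11 and Brf2, and so was left out of the gene table, had 9.3173, 9.3519, 9.5428 and 9.1689 on the NAC arrays and 9.9007, 9.742 and 9.5477 on the vehicle arrays. The groups did not overlap and were nearest between NAC replicate 3 and vehicle replicate 4. It cannot be assigned to either gene, and the probe set of Brf2 alone overlapped between groups. A probe set that names both Gtf3c2 and Mpv17 had 9.6494, 9.6494, 9.5791 and 9.5361 with NAC and 9.7123, 9.7286 and 9.6494 with vehicle, with the highest NAC arrays level with the lowest vehicle array.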
